A study of Mus musculus with 12 samples.

Results

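Liver RNA of RIPK1_D138N mice was compared with that of WT mice after ischemia, an interruption of the blood supply. The comparison takes 6 of the 12 libraries of the series, namely the 3 RIPK1_D138N libraries and the 3 WT libraries, over all 53796 listed genes, of which 11728 were tested. RIPK1_D138N mice carry an amino acid exchange in the kinase RIPK1 that is known to remove its catalytic activity while leaving the protein in place, and WT mice carry none. The other libraries come from TNFR12_KO mice, labelled as knockout for both TNF receptors, and from mice of WT genotype labelled Sham. Only the Sham group is labelled as sham, and the series title and design are the ground for taking the other 3 groups as ischemic. Strain, age, the length of the ischemia and the time of collection are not given in the sources used here. Without a sham library of the mutant, effects of the genotype at rest and after ischemia cannot be told apart. Which libraries of a genotype stem from different animals is not labelled. Xist and Y-linked transcripts, given below, set replicate 1 of the mutant apart from replicates 2 and 3, while the spread between the other libraries of a group may be technical.

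TNF is a cytokine that binds TNFR1 and TNFR2 on the cell surface. Receptor TNFR1 gathers RIPK1, ubiquitin ligases and the IKK and TAK1 kinases into a complex that turns on NF-kB target genes. When that complex fails, RIPK1 kinase activity can start apoptosis through FADD and CASP8, or necroptosis through RIPK3 and MLKL. The scaffold role of RIPK1 in NF-kB activation does not need its kinase activity. In liver, ischemia deprives hepatocytes of oxygen and is followed by an inflammatory response of resident and incoming cells.

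The exchanged residue lies in the kinase domain, and the stretch is shown because the name of the mutant group gives this exchange. The coding bases around the codon of that residue in mouse Ripk1 are given from the GENCODE M21 transcript on build GRCm38, plus strand, chr13:34013295-34013387. They lie within exon 4 of 11. The capitals mark the codon GAC for aspartate in the reference, at positions 34013340 to 34013342 of chromosome 13, and the label of the line puts asparagine there.
Ripk1: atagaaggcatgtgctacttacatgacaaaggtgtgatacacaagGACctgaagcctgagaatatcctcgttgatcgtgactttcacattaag

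Values are deposited FPKM, which relate fragments to the length of a transcript and to the depth of the library. RIPK1_D138N values are given in the order of replicates 1, 2 and 3, and WT values as 3 libraries that carry no number. Tests used log2(FPKM + 1), on which differences of low genes are understated, and all differences are RIPK1_D138N minus WT in log2 units with their standard error (SE). A gene rose or fell where its p-value, adjusted over all tested genes, was under 0.05. Ripk1 itself (ENSMUSG00000021408, chromosome 13, 34002363 to 34037147, plus strand) stood at 3.52, 3.89 and 3.03 FPKM in RIPK1_D138N, against 4.52, 2.91 and 4.22 FPKM in WT. The groups overlapped (log2 difference -0.11 with SE 0.20, adjusted p = 0.659), and a level per gene cannot show the exchanged base.

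The libraries differed in ways that touch the results. RIPK1_D138N replicates 2 and 3 held Xist, the transcript of the inactive X chromosome, at 20.1 and 23.4 FPKM. Ddx3y, a gene of the Y chromosome, was at 0.0176 and 0 FPKM there. RIPK1_D138N replicate 1 held 0.0215 FPKM of Xist and 21 FPKM of Ddx3y, like the WT libraries with Xist at no more than 0.0712 FPKM. Genotype and this split therefore coincide in 2 of the 3 mutant libraries, and results were also computed from replicate 1 alone. All FPKM of a library summed to 489348 to 518580 in RIPK1_D138N and to 288934 to 303514 in WT. The table gives no counts and the depth is unknown. The most common ratio between low values of the same gene put the fragments behind 1 FPKM at 0.833 to 1.09 in RIPK1_D138N and at 1.54 to 2.74 in WT, relative to replicate 1, but only 4.82 to 11% of such genes stood at that ratio. The median difference was 0.45 for genes with a longest transcript of at most 2038 bases, 0.08 up to 3810 bases and -0.20 above that. Hemoglobin and red cell genes were higher in the mutant libraries, with sums of 1779, 898 and 1027 FPKM in RIPK1_D138N, against 83.8, 91.8 and 156 FPKM in WT. Their part in the results below was not tested. Hepatocyte markers were high in both groups, as the tissue label implies, with sums of 35730 to 40460 FPKM in RIPK1_D138N and 6999 to 11160 FPKM in WT. Alb was listed at 0 in every library. Between the groups 12 of 13 tested hepatocyte markers rose and none fell.

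The groups differed across much of the measured transcriptome. In RIPK1_D138N 3500 of 11728 genes rose (29.8%) and 2570 fell (21.9%), with a median difference of 0.11 over all tested genes. The change was at least 1 log2 unit for 1955 risen and 1055 fallen genes, and at least 2 log2 units for 519 and 176. All 3 mutant libraries lay above all 3 WT libraries for 34.9% of the tested genes, and below them for 25.4%. Of the risen genes, 98.6% in replicate 1, 98.7% in replicate 2 and 99.6% in replicate 3 lay above every WT library. Of the fallen genes, 98.4%, 96.96% and 99.3% lay below every WT library in the same order of replicates. The counts of gene lists given below are to be read against the shares over all genes, and a list near 29.8% risen and 21.9% fallen is no result about that list. From replicate 1 alone, 2540 genes rose and 1797 fell. After another scaling, which divides each library by the median ratio of its genes to their means, 2941 genes rose and 3572 fell, and the median difference was -0.06 in place of 0.11, a shift that touches every difference given here.

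**Figure D1:**
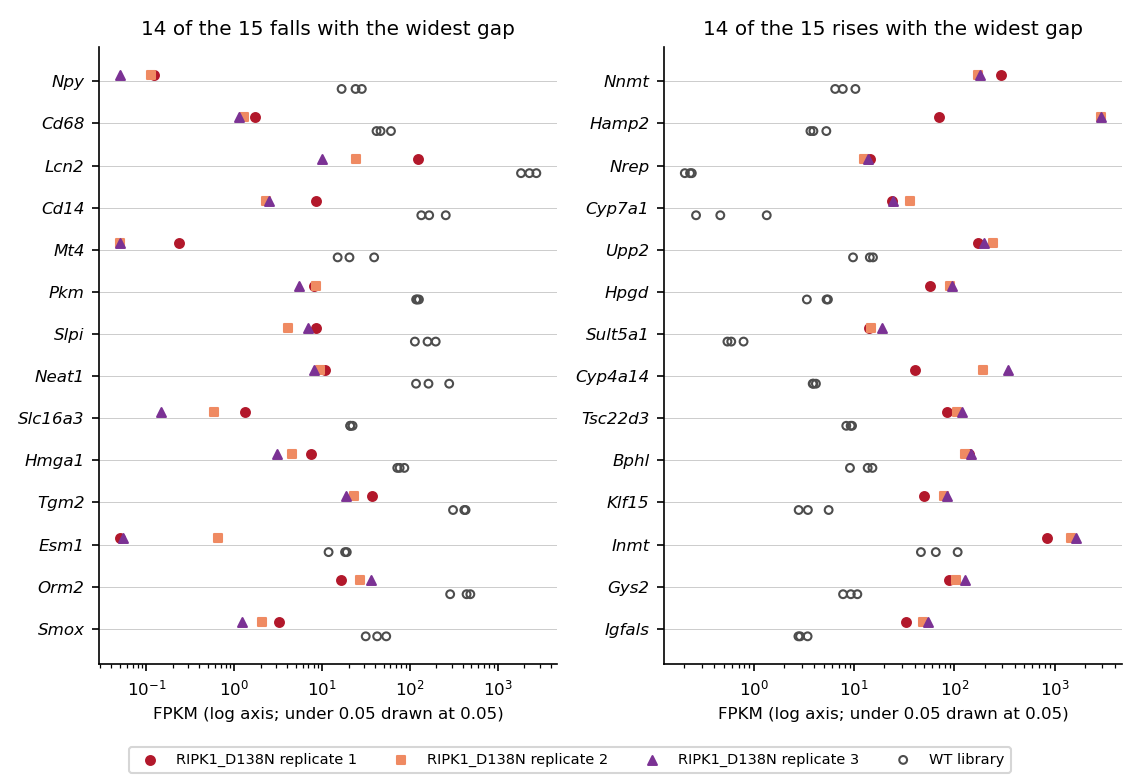
Each row is a gene and each mark a library, on a log FPKM axis, for 14 of the 15 falls (left) and 14 of the 15 rises (right) with the widest gap between the lowest library of the higher group and the highest library of the lower group. Values under 0.05 FPKM are drawn at 0.05. Filled marks are RIPK1_D138N replicates 1 to 3, drawn above the open WT marks of the same gene, and the groups stand apart in every row, as for Npy at most 0.122 FPKM in RIPK1_D138N and at least 16.7 FPKM in WT.

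In the widest falls every RIPK1_D138N library lay far below every WT library. Npy, the secreted neuropeptide Y (ENSMUSG00000029819, chromosome 6, 49822710 to 49829507, plus strand), stood at 0.122, 0.113 and 0 FPKM in RIPK1_D138N, against 24, 16.7 and 28.3 FPKM in WT (log2 difference -4.45 with SE 0.18, adjusted p = 9.55e-09). Cd68, a lysosomal glycoprotein of macrophages, stood at 1.74, 1.3 and 1.13 FPKM in RIPK1_D138N, against 41.6, 60.8 and 46.3 FPKM in WT (log2 difference -4.39 with SE 0.22, adjusted p = 1.10e-07). In whole tissue, fewer cells of a type and less RNA per cell cannot be told apart, here and in all results. Slpi, a secreted inhibitor of leukocyte proteases, stood at 8.61, 4.04 and 6.87 FPKM in RIPK1_D138N, against 114, 196 and 159 FPKM in WT. Replicate 1 was the highest mutant library and still lay far below WT. Esm1, an endothelial proteoglycan, stood at 0.0447, 0.658 and 0.0537 FPKM in RIPK1_D138N, against 18.3, 11.8 and 19.1 FPKM in WT. Neat1, the long RNA that builds paraspeckles, stood at 10.7, 9.4 and 8.18 FPKM in RIPK1_D138N, against 162, 279.7 and 117 FPKM in WT. Hmga1, a chromatin architecture protein, stood at 7.51, 4.52 and 3.06 FPKM in RIPK1_D138N, against 76.3, 71.7 and 86.3 FPKM in WT. The log2 differences of these genes were -4.40, -3.80, -4.08 and -3.78 in the order named. Smox, which oxidizes spermine, and Tgm2, a transglutaminase, were also among the widest falls, with log2 differences of -3.79 and -3.86. Mt4, a metallothionein known from squamous epithelium, stood at 0.234, 0 and 0 FPKM in RIPK1_D138N, against 15, 39.1 and 20.5 FPKM in WT.

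The widest rises took in the enzymes Nnmt, Upp2 and Hpgd, the transcription factor Klf15 and Nrep, a neuronal regeneration protein. Nnmt, which methylates nicotinamide (ENSMUSG00000032271, chromosome 9, 48591877 to 48605153, minus strand), stood at 289, 171 and 179.7 FPKM in RIPK1_D138N, against 6.46, 10.3 and 7.69 FPKM in WT (log2 difference 4.53 with SE 0.29, adjusted p = 3.82e-07). Its mean was 26.2 times the WT mean, with replicate 1 the highest library. Upp2, a uridine phosphorylase of liver, stood at 172, 240.5 and 196 FPKM in RIPK1_D138N, against 14.3, 15.4 and 9.73 FPKM in WT. Hpgd, which inactivates prostaglandins, stood at 56.6, 89.8 and 94.5 FPKM in RIPK1_D138N, against 5.46, 5.29 and 3.37 FPKM in WT. Klf15, a transcription factor of amino acid and glucose metabolism, stood at 50, 79.3 and 84.9 FPKM in RIPK1_D138N, against 3.45, 5.55 and 2.79 FPKM in WT. Replicate 1 was the lowest mutant library for these 3 genes and lay above every WT library. Inmt, an indolamine methyltransferase, and Bphl, a hydrolase, rose by 4.17 and 3.38 log2 units. Sult5a1, a sulfotransferase, stood at 13.9, 14.9 and 18.9 FPKM in RIPK1_D138N, against 0.542, 0.592 and 0.785 FPKM in WT and was alike in the 3 mutant libraries. Nrep stood at 14.4, 12.6 and 13.8 FPKM in RIPK1_D138N, against 0.239, 0.23 and 0.204 FPKM in WT.

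Transcripts of NF-kB targets were lower in RIPK1_D138N, while genes of the TNF receptor complex moved both ways. Among the TNF receptor and necroptosis genes 5 of 30 tested members rose and 11 fell (median log2 difference -0.14). The linear ubiquitin ligase split: its catalytic subunit Rnf31 stood at 1.99, 1.81 and 1.06 FPKM in RIPK1_D138N, against 5.95, 6.16 and 6.19 FPKM in WT (log2 difference -1.46 with SE 0.21, adjusted p = 7.99e-05), while its partner Sharpin stood at 23, 24.2 and 21.2 FPKM in RIPK1_D138N, against 13.7, 9.09 and 13 FPKM in WT (log2 difference 0.90 with SE 0.25, adjusted p = 0.00916). The Sharpin call was lost once the trend with transcript length was removed and from replicate 1 alone. The third subunit, Rbck1, did not pass the test (log2 difference 0.09). Ikbkg, the regulatory IKK subunit NEMO on chromosome X, stood at 6.12, 4.22 and 2.65 FPKM in RIPK1_D138N, against 22.4, 12.4 and 22.2 FPKM in WT. Of the kinases it binds, Chuk rose by 0.40 and Ikbkb did not pass the test (log2 difference 0.42). The adaptor Traf2 stood at 3.71, 2.72 and 2.54 FPKM in RIPK1_D138N, against 6.24, 6.33 and 6.77 FPKM in WT. Mlkl, the executor of necroptosis, stood at 2.17, 1.3 and 1.17 FPKM in RIPK1_D138N, against 4.55, 6.01 and 4.83 FPKM in WT (log2 difference -1.28 with SE 0.23, adjusted p = 0.000581). Ripk3 was under the expression limit and was not tested, at 0.577, 0.706 and 0.231 FPKM in RIPK1_D138N, against 0.795, 1.31 and 0.953 FPKM in WT. Casp8, the starter caspase of apoptosis, rose and stood at 9.86, 8.63 and 7.52 FPKM in RIPK1_D138N, against 5.86, 3.98 and 6.16 FPKM in WT. Its inhibitor Cflar stood at 13.4, 12.9 and 10.5 FPKM in RIPK1_D138N, against 7.45, 6.49 and 11.1 FPKM in WT. The calls of Cflar and Chuk were lost under the other scaling, in a fit of the 6 libraries only, from replicate 1 alone and when replicate 1, replicate 2 or either of 2 WT libraries was left out. That of Chuk was also lost without any of the others, and that of Cflar with no filter on low values. Fadd did not pass the test (log2 difference -0.16). Of feedback inhibitors, Tnfaip3 (A20) and its binding partner Tnip1 fell, with log2 differences of -1.37 and -1.33, although Tnfaip3 was not called from replicate 1 alone. From replicate 1 alone 1 list member rose and 8 fell, and the rises dropped to 3 in a fit of the 6 libraries only and to 2 under the other scaling or when replicate 1, replicate 2 or either of 2 WT libraries was left out.

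Among NF-kB targets 1 of 20 tested members rose and 12 fell (median log2 difference -0.93, or -0.62 from replicate 1 alone). Rela, the activating subunit, stood at 9.08, 9.5 and 7.74 FPKM in RIPK1_D138N, against 25.2, 31.4 and 27.8 FPKM in WT (log2 difference -1.57 with SE 0.27, adjusted p = 0.000393), and Nfkb2, the precursor of the non-canonical subunit, stood at 0.975, 1.9 and 1.2 FPKM in RIPK1_D138N, against 6.94, 6.15 and 9.25 FPKM in WT. Ier3, a stress-inducible survival gene, stood at 35.5, 9.82 and 14.2 FPKM in RIPK1_D138N, against 122, 72.2 and 122 FPKM in WT. The exception was Nfkbia, which encodes the inhibitor IkBa and stood at 136, 86.5 and 107 FPKM in RIPK1_D138N, against 72.3, 75.5 and 62.6 FPKM in WT. Its call was lost under the other scaling, with no filter on low values, after removal of the length trend and without replicate 1, replicate 3 or either of 2 WT libraries. Immediate early genes followed, as 1 of 27 tested members rose and 14 fell (median log2 difference -0.76, or -0.53 from replicate 1 alone). Fosl1, a partner of JUN, Dusp5, a phosphatase of ERK, and Atf3, a stress transcription factor, had log2 differences of -2.61, -2.63 and -0.76. Fos alone was higher, at 42.8, 57.4 and 58.2 FPKM in RIPK1_D138N, against 42.6, 32.3 and 35.8 FPKM in WT, and its call was lost with a pseudocount of 0.1, with no filter on low values, under the other scaling, after removal of the length trend, from replicate 1 alone and without replicate 2, replicate 3 or either of 2 WT libraries. The Atf3 call was lost with no filter, in a fit of the 6 libraries only, from replicate 1 alone and without replicate 2, replicate 3 or either of 2 WT libraries.

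Cytokine genes fell in part, and replicate 1 stood apart from the other mutant libraries. For the whole list 4 of 26 tested members rose and 11 fell (median log2 difference -0.69), and from replicate 1 alone 5 rose and 6 fell. Ccl2, the monocyte attractant MCP-1, stood at 26.5, 2.13 and 2.41 FPKM in RIPK1_D138N, against 67.3, 74.6 and 64.6 FPKM in WT. Ccl7, a related chemokine, stood at 6.08, 0.201 and 0 FPKM in RIPK1_D138N, against 14.7, 19 and 14.3 FPKM in WT. On the log scale replicate 1 lay nearer to WT than to the other mutant libraries, and neither gene was called from replicate 1 alone. Il1rn, the interleukin-1 receptor antagonist, stood at 1.58, 1.16 and 1.11 FPKM in RIPK1_D138N, against 22.6, 12.5 and 22.7 FPKM in WT, with all 3 mutant libraries low. Ccl6, a myeloid chemokine, stood at 4.76, 2.39 and 1.84 FPKM in RIPK1_D138N, against 22.3, 20.8 and 26.7 FPKM in WT. Rises came from Cxcl12, a homing chemokine of stroma and endothelium, at 66.5, 112 and 107 FPKM in RIPK1_D138N, against 19.2, 17.9 and 14.7 FPKM in WT, and from Il18 at 10.6, 12.3 and 8.1 FPKM in RIPK1_D138N, against 1.72, 2.42 and 1.42 FPKM in WT. Tnf itself was under the expression limit, at 0.0591, 0.109 and 0.178 FPKM in RIPK1_D138N, against 0.115, 0.152 and 0.147 FPKM in WT. Genes that sense bacterial lipopolysaccharide fell without a rise (6 of 13, and 3 from replicate 1 alone), among them Irak3, which restrains the receptor, at 0.218, 0.131 and 0.133 FPKM in RIPK1_D138N, against 6.14, 3.93 and 5.43 FPKM in WT, and Ly96, the MD-2 partner of TLR4, at 3.77, 4.65 and 4.02 FPKM in RIPK1_D138N, against 10.9, 9.69 and 13.1 FPKM in WT. Of 8 inflammasome genes 2 rose, Il18 and Ninj1, the protein that ruptures the membrane of dying cells, at 78.7, 78.6 and 83.7 FPKM in RIPK1_D138N, against 31.1, 37.9 and 31.6 FPKM in WT.

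Genes of cell death control and DNA damage fell on balance. Among the BCL2 family 1 of 16 tested members rose and 11 fell (median log2 difference -0.78), and the falls took in protectors and killers alike. The protector Bcl2l1 (BCL-XL) stood at 14.8, 9.31 and 9.18 FPKM in RIPK1_D138N, against 40.4, 37.3 and 44.3 FPKM in WT. The killers Bbc3 (PUMA), Bax and Bak1 fell, with log2 differences of -1.31, -0.79 and -0.88. Among p53 targets 4 of 21 tested members rose and 12 fell (median log2 difference -0.92). Cdkn1a, the cell cycle inhibitor p21, stood at 19.6, 11 and 8.57 FPKM in RIPK1_D138N, against 100.5, 100.3 and 97.2 FPKM in WT (log2 difference -2.91 with SE 0.32, adjusted p = 1.18e-05). Mdm2, the ligase that degrades p53, stood at 10, 5.14 and 4.99 FPKM in RIPK1_D138N, against 26, 28.7 and 23.3 FPKM in WT, and Aen, a nuclease, fell by 1.88 on the log2 scale. The death receptor Fas rose instead, at 14.1, 9.78 and 9.72 FPKM in RIPK1_D138N, against 3, 3.71 and 4.09 FPKM in WT, as did Perp, a desmosome protein, by 1.62. Interferon-stimulated genes moved both ways, as 7 of 34 tested members rose and 13 fell (median log2 difference -0.19), with 4 rises from replicate 1 alone. The antiviral gene Rsad2 (viperin) stood at 4.02, 1.73 and 1.61 FPKM in RIPK1_D138N, against 33.3, 45 and 35.1 FPKM in WT. Ifit3, another antiviral gene, stood at 5.22, 6.81 and 5.92 FPKM in RIPK1_D138N, against 18.9, 21.3 and 22.9 FPKM in WT. The immunoproteasome subunits Psmb8 and Psmb9 rose by 1.40 and 1.71, and the tether Bst2 stood at 225, 228 and 264 FPKM in RIPK1_D138N, against 58.9, 92 and 63.7 FPKM in WT.

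Transcripts of the response to low oxygen were lower in all 3 mutant libraries. Outside glycolysis, 0 of 27 tested members rose and 21 fell (median log2 difference -1.34), and 18 fell from replicate 1 alone. Adm, the vasodilator adrenomedullin, stood at 5.81, 1.95 and 2.94 FPKM in RIPK1_D138N, against 50.8, 58 and 35.1 FPKM in WT (log2 difference -3.48 with SE 0.33, adjusted p = 3.58e-06). Ero1l, an oxidase for protein folding, stood at 3.6, 3.27 and 2.33 FPKM in RIPK1_D138N, against 50.5, 48.6 and 28.4 FPKM in WT. Vegfa, the vascular growth factor, stood at 22.9, 26.8 and 21.8 FPKM in RIPK1_D138N, against 102, 108 and 87.3 FPKM in WT, and Egln3, an oxygen sensor that HIF itself induces, stood at 7.75, 3.06 and 3.36 FPKM in RIPK1_D138N, against 34.8, 38.2 and 31.8 FPKM in WT. No member rose. In Sham livers Adm stood at 1.01 ± 0.275 FPKM and Egln3 at 1.89 ± 0.0192 FPKM (mean ± SD, n = 3). Unlike Adm and Egln3, the sum over the list, in which the most abundant members weigh most, was lower in RIPK1_D138N than in Sham. It was 842.1, 640.3 and 680 FPKM in RIPK1_D138N, 1252 to 1460 FPKM in Sham and 1763 to 2266 FPKM in WT. All FPKM of a library summed to 649373 to 750501 in Sham, above the sums in RIPK1_D138N, so the scale differs too.

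Glycolysis genes divided by isozyme, as 6 of 21 tested members rose and 14 fell (median log2 difference -0.81). For glucose uptake and pyruvate kinase the form typical of hepatocytes rose and the general form fell. For glucose uptake, the general transporter Slc2a1 (GLUT1) stood at 11.4, 4.24 and 4.02 FPKM in RIPK1_D138N, against 54.9, 68.2 and 50.5 FPKM in WT, while the liver transporter Slc2a2 (GLUT2) stood at 88.5, 119 and 123 FPKM in RIPK1_D138N, against 9.62, 12.7 and 5.46 FPKM in WT. Hk2, a hexokinase of muscle and other tissues, stood at 0.657, 0.167 and 0.678 FPKM in RIPK1_D138N, against 3.8, 8.17 and 3.69 FPKM in WT. Aldoa, the general form of aldolase, fell by 2.27 on the log2 scale. For pyruvate kinase, Pkm stood at 8.1, 8.43 and 5.46 FPKM in RIPK1_D138N, against 118, 126 and 121 FPKM in WT (log2 difference -3.90 with SE 0.25, adjusted p = 3.82e-07), while the liver form Pklr stood at 22.4, 96.5 and 55.9 FPKM in RIPK1_D138N, against 20.8, 14.5 and 12.7 FPKM in WT. Pklr in replicate 1 lay barely above the highest WT library, and its call was lost without replicate 2 and from replicate 1 alone. For phosphofructokinase, the liver-named form Pfkl stood at 3.77, 6.89 and 6.22 FPKM in RIPK1_D138N, against 34.7, 30.3 and 34 FPKM in WT, and the muscle form Pfkm stood at 2.6, 4.04 and 3.67 FPKM in RIPK1_D138N, against 1.99, 1.77 and 2.05 FPKM in WT. Within this pair the liver-named form was the one that fell. The Pfkm call was lost without replicate 2 or 3 and from replicate 1 alone, and those of Ldha and Ldhb from replicate 1 alone. For lactate dehydrogenase, Ldha stood at 352, 226 and 203 FPKM in RIPK1_D138N, against 439, 411 and 482 FPKM in WT, and Ldhb, the heart form, stood at 1.72, 2.05 and 1.96 FPKM in RIPK1_D138N, against 0.643, 0.783 and 0.429 FPKM in WT. Hk2, Pfkm, Ldha and Ldhb, with Vegfa and Egln3 above, were picked after their values were seen. Slc16a3, which exports lactate, stood at 1.33, 0.589 and 0.147 FPKM in RIPK1_D138N, against 21, 22.2 and 20.9 FPKM in WT (log2 difference -3.79 with SE 0.23, adjusted p = 3.52e-07). From replicate 1 alone 3 members of the list rose and 13 fell.

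**Figure D2:**
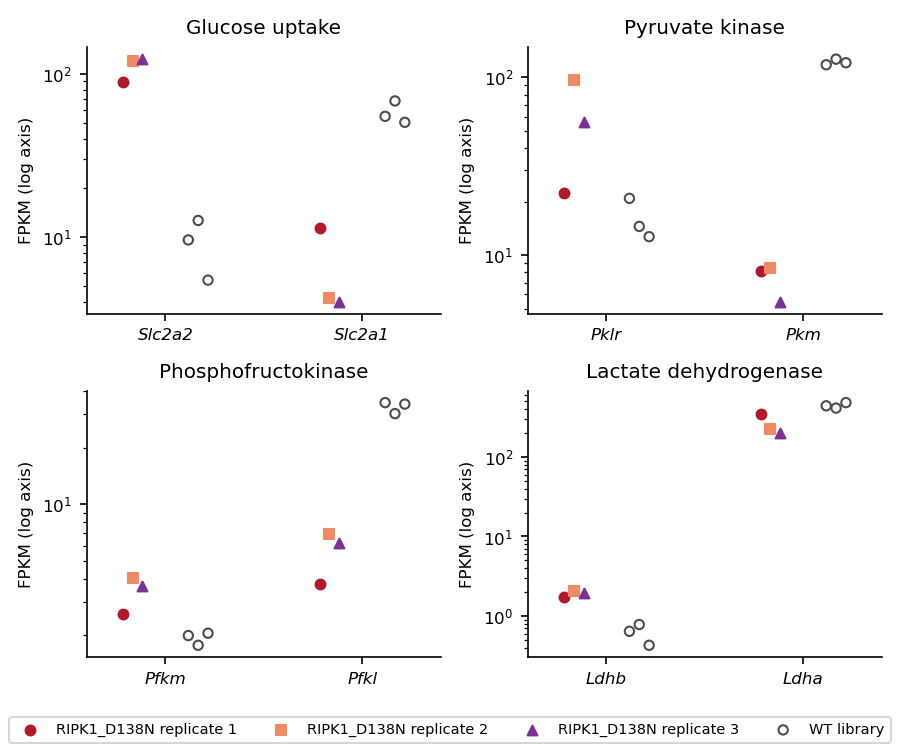
FPKM on log axes of 4 pairs of glucose transporters and glycolytic enzymes, each mark a library, with RIPK1_D138N replicates 1 to 3 (filled) left of the WT libraries (open) for each gene. The left gene of each pair was higher in RIPK1_D138N and the right gene lower, as for Slc2a2 with at least 88.5 FPKM and Slc2a1 with at most 11.4 FPKM in RIPK1_D138N.

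The promoters of 4 fallen members of the hypoxia and glycolysis lists are shown because these genes fell together, and because HIF, the oxygen-regulated factor, is known to bind ACGTG or GCGTG. Each window is RefSeq sequence on build GRCm38.p6, 300 bases from 250 before to 50 after the gene start, and all 4 lie on the plus strand. The capitals mark ACGTG or GCGTG on either strand, read as CACGT or CACGC where they lie on the other one, and CACGTG would count on both.
Pkm, chr9:59656977-59657276: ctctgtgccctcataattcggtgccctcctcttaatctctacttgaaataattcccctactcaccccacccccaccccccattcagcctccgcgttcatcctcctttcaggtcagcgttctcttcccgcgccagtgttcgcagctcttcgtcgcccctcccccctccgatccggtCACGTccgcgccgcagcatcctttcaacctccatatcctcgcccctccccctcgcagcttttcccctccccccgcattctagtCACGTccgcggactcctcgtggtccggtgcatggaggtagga
Slc16a3, chr11:120948817-120949116: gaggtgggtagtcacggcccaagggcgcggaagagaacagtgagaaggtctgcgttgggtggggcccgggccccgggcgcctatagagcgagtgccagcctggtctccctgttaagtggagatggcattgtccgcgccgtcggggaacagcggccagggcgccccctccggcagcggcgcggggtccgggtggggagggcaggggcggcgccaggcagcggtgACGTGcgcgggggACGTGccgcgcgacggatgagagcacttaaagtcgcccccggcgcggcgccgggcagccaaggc
Adm, chr7:110627407-110627706: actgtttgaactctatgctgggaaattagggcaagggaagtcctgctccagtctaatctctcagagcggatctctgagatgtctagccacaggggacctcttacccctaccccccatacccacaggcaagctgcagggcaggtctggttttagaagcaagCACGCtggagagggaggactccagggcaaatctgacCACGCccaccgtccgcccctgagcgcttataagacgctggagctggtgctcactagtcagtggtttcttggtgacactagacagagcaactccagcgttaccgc
Slc2a1, chr4:119108495-119108794: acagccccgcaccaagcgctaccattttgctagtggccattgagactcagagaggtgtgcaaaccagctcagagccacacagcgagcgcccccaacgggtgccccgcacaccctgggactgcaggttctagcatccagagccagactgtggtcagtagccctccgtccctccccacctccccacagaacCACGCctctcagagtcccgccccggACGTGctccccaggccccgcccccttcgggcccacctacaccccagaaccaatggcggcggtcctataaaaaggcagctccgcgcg
Each of these windows held 2 matches. Only genes with a match were eligible, each shown by its window with the most matches, so a match was set by the choice. At least 1 match stood in 32 of the 41 windows of fallen members of both lists (78.0%), against 43.8% of all 32851 windows of this length. Over all tested members of both lists, fallen or not, it was 43 of 56 windows (76.8%). Both lists were chosen as hypoxia and glycolysis genes, so the contrast with all windows is no result about the fall. Only 28 of the 35 fallen members had a window. A match is a description of these letters and not a site.

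Stress programmes other than hypoxia differed in direction. Among genes driven by ATF4 and CHOP, which answer amino acid shortage and misfolded protein, 1 of 22 tested members rose and 14 fell (median log2 difference -1.34). The folate enzyme Mthfd2 stood at 0.93, 0.207 and 0.216 FPKM in RIPK1_D138N, against 14.5, 9.9 and 15.3 FPKM in WT (log2 difference -3.31 with SE 0.24, adjusted p = 8.31e-07), Psat1 of serine synthesis stood at 0.558, 0.354 and 0.0747 FPKM in RIPK1_D138N, against 10.8, 5.94 and 13.8 FPKM in WT, and Trib3, a pseudokinase, stood at 2.83, 1.97 and 1.9 FPKM in RIPK1_D138N, against 11.6, 15.5 and 11.8 FPKM in WT. Atf4 itself stood at 48.2, 41.2 and 41.7 FPKM in RIPK1_D138N, against 109, 108 and 107 FPKM in WT. Gdf15, a stress cytokine, was the exception at 221, 157 and 145 FPKM in RIPK1_D138N, against 63.5, 101 and 53.5 FPKM in WT, and its call was lost with no filter on low values, after removal of the length trend and without replicate 1 or either of 2 WT libraries. Among NRF2 targets 7 of 27 tested members rose and 13 fell (median log2 difference -0.40). Srxn1, which repairs peroxiredoxins, stood at 15.8, 6.36 and 6.68 FPKM in RIPK1_D138N, against 137, 109.9 and 139 FPKM in WT (log2 difference -3.71 with SE 0.30, adjusted p = 1.46e-06). Hmox1, heme oxygenase, stood at 113, 23 and 20.6 FPKM in RIPK1_D138N, against 432, 399.5 and 388 FPKM in WT, with replicate 1 above the other mutant libraries. The glutathione transferases Gsta1 and Gsta2 ran opposite, with log2 differences of -4.62 and 1.61, and near-identical copies of this family can share fragments. Pgd, of the pentose phosphate pathway, fell by 2.03 on the log2 scale, while Gstm1 stood at 1233, 1009 and 1346 FPKM in RIPK1_D138N, against 283, 419 and 294 FPKM in WT.

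Heat shock genes rose in part, while chaperones of the endoplasmic reticulum rose no more often than tested genes at large. Among heat shock proteins 11 of 24 tested members rose and 1 fell (median log2 difference 0.43), or 6 rises from replicate 1 alone. Dnaja1 stood at 64.2, 103 and 80 FPKM in RIPK1_D138N, against 31.4, 23.5 and 28.4 FPKM in WT, the mitochondrial Hspe1 stood at 234, 243 and 239.6 FPKM in RIPK1_D138N, against 75.1, 94.6 and 78.6 FPKM in WT, and Hsf1, the factor that drives the family, fell by 0.50 on the log2 scale, a call that was lost with no filter on low values, after removal of the length trend, from replicate 1 alone and without replicate 1, replicate 3 or either of 2 WT libraries. Among chaperones of the endoplasmic reticulum 7 of 24 tested members rose and 3 fell (median log2 difference 0.33), beside 29.8% rises over all tested genes. There were 3 rises and 2 falls from replicate 1 alone, and 6 rises and 5 falls with a median of 0.13 under the other scaling. Herpud1, of protein disposal, stood at 236, 299 and 278 FPKM in RIPK1_D138N, against 47.9, 55.3 and 50 FPKM in WT (log2 difference 2.38 with SE 0.22, adjusted p = 3.47e-06), while the sensor Ern1 and the transcription factor Xbp1 fell, with log2 differences of -1.26 and -1.21. Proteasome genes had no common direction: 9 of 31 tested members rose and 5 fell (median log2 difference 0.11), but 8 rose and 10 fell under the other scaling, and 4 rose and 10 fell once the trend with transcript length was removed. All 5 falls were subunits of the regulatory cap, such as Psmd8 at 91.3, 55.7 and 52.6 FPKM in RIPK1_D138N, against 164, 191 and 182 FPKM in WT, and 8 of the 9 rises were subunits of the core, such as Psmb5 at 138.3, 91.5 and 115 FPKM in RIPK1_D138N, against 39.4, 53 and 50.9 FPKM in WT.

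Genes of cell shape and matrix were lower. Among keratins, actins and tubulins 3 of 31 tested members rose and 18 fell (median log2 difference -0.98). The hepatocyte keratin Krt18 stood at 209, 87.6 and 81.1 FPKM in RIPK1_D138N, against 1450, 1645 and 1313 FPKM in WT (log2 difference -3.67 with SE 0.32, adjusted p = 2.72e-06), and its partner Krt8 stood at 287, 105 and 103 FPKM in RIPK1_D138N, against 1145, 999.6 and 1057 FPKM in WT. Replicate 1 was the highest mutant library for both. The motor Myh9 stood at 7.45, 11.6 and 8.88 FPKM in RIPK1_D138N, against 44.5, 36.2 and 46 FPKM in WT. Among the rises, replicate 1 was far above the other mutant libraries for the actin binder Tmsb4x at 473, 102 and 116 FPKM in RIPK1_D138N, against 81.8, 70.3 and 74.4 FPKM in WT and the smooth muscle light chain Myl9 at 14.1, 2.86 and 4.25 FPKM in RIPK1_D138N, against 0.681, 0.238 and 0.257 FPKM in WT. The Tmsb4x call was lost with no filter on low values, under the other scaling, in a fit of the 6 libraries only, after removal of the length trend, without replicate 1 and without any single WT library. Among S100 and annexin genes 5 of 23 tested members rose and 9 fell (median log2 difference -0.19), with 2 rises and 4 falls from replicate 1 alone, and 3 rises without replicate 2 or 1 of the WT libraries. The cornified envelope gene Sprr1a stood at 6.25, 0.133 and 0.523 FPKM in RIPK1_D138N, against 51, 60.3 and 82.4 FPKM in WT, and Anxa2 stood at 11.5, 9.95 and 7.4 FPKM in RIPK1_D138N, against 67.6, 34.1 and 106 FPKM in WT. S100a13 rose, at 24.2, 31.4 and 37.5 FPKM in RIPK1_D138N, against 5.24, 5.88 and 5.49 FPKM in WT. Among matrix remodelling genes 2 of 23 tested members rose and 14 fell (median log2 difference -1.15). Timp1, an inhibitor of matrix proteases, stood at 3.38, 0.254 and 0.333 FPKM in RIPK1_D138N, against 45.5, 32 and 52.5 FPKM in WT (log2 difference -4.49 with SE 0.40, adjusted p = 2.87e-06). Procr, the protein C receptor, stood at 1.77, 0.589 and 0.514 FPKM in RIPK1_D138N, against 10.1, 8.65 and 11.6 FPKM in WT, and Timp3 rose by 1.36. Beside these, markers of stellate cells and fibroblasts summed to 367.8 to 492.3 FPKM in RIPK1_D138N, against 278.6 to 318.2 FPKM in WT.

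Acute phase genes, made by the liver in inflammation, mostly fell, as 6 of 31 tested members rose and 21 fell (median log2 difference -1.34). Saa2, serum amyloid A, stood at 612, 21.7 and 17.8 FPKM in RIPK1_D138N, against 5045, 4171 and 6713 FPKM in WT. Replicate 1 lay far above the other mutant libraries and below WT. Fragments of Saa2 and Saa1 can be shared. Serpina3n, a protease inhibitor, stood at 91.7, 91.3 and 73.7 FPKM in RIPK1_D138N, against 920.1, 498 and 1096 FPKM in WT (log2 difference -3.21 with SE 0.31, adjusted p = 4.54e-06), and in Sham livers at 2092 ± 787 FPKM (mean ± SD, n = 3). The metallothionein Mt1 stood at 769, 589 and 388 FPKM in RIPK1_D138N, against 3277, 3852 and 3367 FPKM in WT. Mt2, its close copy, with which fragments can be shared, stood at 799.9, 537 and 351 FPKM in RIPK1_D138N, against 3627, 3715 and 3538 FPKM in WT. Rises in the list were Itih4 at 549, 862 and 738 FPKM in RIPK1_D138N, against 238, 269 and 217 FPKM in WT, Agt, the precursor of angiotensin, at 296, 349.7 and 393 FPKM in RIPK1_D138N, against 63.7, 86 and 61 FPKM in WT, and Il6ra, the interleukin-6 receptor, by 1.05, although Il6ra was not called from replicate 1 alone. In complement and coagulation 24 of 36 tested members rose and 4 fell (median log2 difference 1.08). The 3 fibrinogen chains fell, with Fga at 903, 1174 and 1146 FPKM in RIPK1_D138N, against 3301, 1807 and 3704 FPKM in WT. The other chains Fgb and Fgg had log2 differences of -1.22 and -1.16. The fourth fall was Cpb2, an inhibitor of clot lysis (log2 difference -0.58 with SE 0.22, adjusted p = 0.0423), whose call was lost with no filter on low values, in a fit of the 6 libraries only, from replicate 1 alone and without any single mutant library or either of 2 WT libraries. The factors F9 and F13b, the complement regulator Cfi and the lectin Mbl2 rose by 2.03, 2.19, 2.02 and 3.17 log2 units. All called members of this list other than the fibrinogen chains and Cpb2 were thus higher in RIPK1_D138N.

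Metabolic genes of hepatocytes were higher in all 3 mutant libraries. Amino acid breakdown moved farthest among the metabolic lists, as 42 of 43 tested members rose and 0 fell, with a median log2 difference of 2.32. Hgd, of tyrosine breakdown, stood at 305, 246 and 266 FPKM in RIPK1_D138N, against 31.8, 38.5 and 24.1 FPKM in WT (log2 difference 3.09 with SE 0.19, adjusted p = 3.82e-07), and Cth, of cysteine synthesis, stood at 196, 159 and 182 FPKM in RIPK1_D138N, against 23.4, 22.2 and 20.7 FPKM in WT. In the urea cycle 12 of 14 tested members rose and 0 fell (median log2 difference 1.99). Asl stood at 340.3, 359 and 331 FPKM in RIPK1_D138N, against 55.7, 64.8 and 38 FPKM in WT, and Slc25a15, the ornithine carrier, stood at 55.9, 54.9 and 49.5 FPKM in RIPK1_D138N, against 10.4, 10.7 and 9.93 FPKM in WT (log2 difference 2.26 with SE 0.16, adjusted p = 7.03e-07). The groups stood clear of each other in all of these.

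Energy metabolism followed. All 49 tested nuclear genes of oxidative phosphorylation rose, with a median of 1.68, and 48 rose with a median of 1.39 once the trend with transcript length was removed. Atp5j, a subunit of ATP synthase, stood at 384, 314 and 419 FPKM in RIPK1_D138N, against 64.5, 87.8 and 58.9 FPKM in WT. Among genes of the mitochondrial genome 8 of 13 tested members rose and 0 fell (median log2 difference 0.92), but 2 rose from replicate 1 alone, and 5 under the other scaling, with no filter on low values or without replicate 3 or 1 of the WT libraries. With the trend with transcript length removed 4 rose and 1 fell (median 0.44). Of the 13 members 5 lie at loci listed at 0 in a whole group, and without such loci 7 of 8 rose (median 1.025). Among fatty acid oxidation and ketone genes 34 of 36 tested members rose and 2 fell (median log2 difference 1.78). Acat1, a mitochondrial acetyl-CoA acetyltransferase, stood at 132, 128 and 131 FPKM in RIPK1_D138N, against 22.7, 18.3 and 20 FPKM in WT (log2 difference 2.63 with SE 0.18, adjusted p = 7.03e-07). The falls were Pdk4, which blocks glucose oxidation, at 23.3, 7.22 and 11.6 FPKM in RIPK1_D138N, against 121, 45.5 and 132 FPKM in WT, and Fgf21, a fasting hormone, at 0.46, 0.796 and 0.697 FPKM in RIPK1_D138N, against 7.66, 2.89 and 9.29 FPKM in WT. Genes of glucose production and glycogen mostly rose, as 10 of 15 tested members rose and 2 fell, with a median log2 difference of 1.58. Pcx and Pgm1 were the falls, and neither was called without 1 of the WT libraries. Fbp1 stood at 571, 544 and 569.8 FPKM in RIPK1_D138N, against 112, 98.8 and 101 FPKM in WT, and Gys2, the glycogen synthase of liver, stood at 88.5, 104 and 127 FPKM in RIPK1_D138N, against 9.24, 10.7 and 7.74 FPKM in WT (log2 difference 3.38 with SE 0.22, adjusted p = 3.82e-07). Among cholesterol and fat synthesis genes 16 of 27 tested members rose and 1 fell (median log2 difference 1.16), or 9 rises from replicate 1 alone. Thrsp, a lipogenic protein, stood at 562, 1085 and 935 FPKM in RIPK1_D138N, against 67.4, 149 and 39.6 FPKM in WT, and Elovl6, a fatty acid elongase, stood at 12, 41 and 27.8 FPKM in RIPK1_D138N, against 3.95, 2.41 and 3.35 FPKM in WT. Replicate 1 was the lowest mutant library for both.

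Bile acid, detoxification and secretion genes rose as well. For bile acids 20 of 30 tested members rose and 0 fell (median log2 difference 1.60). Cyp8b1, which sets the balance of bile acids, stood at 76, 63.6 and 36.5 FPKM in RIPK1_D138N, against 6.88, 5.85 and 7.23 FPKM in WT, and the nuclear receptor for bile acids, Nr1h4 (FXR), stood at 38.7, 37.2 and 40.1 FPKM in RIPK1_D138N, against 9.63, 8.84 and 7.12 FPKM in WT (log2 difference 2.07 with SE 0.15, adjusted p = 8.97e-07). Among drug-metabolizing cytochromes 37 of 41 tested members rose and 0 fell (median log2 difference 2.05), or 30 rises with a median of 1.45 from replicate 1 alone. Of the 37 risen members 9 also stand on the list of female-biased genes, which split between replicate 1 and the other mutant libraries. Cyp2j5 stood at 143, 174 and 173 FPKM in RIPK1_D138N, against 23.2, 30.1 and 17.4 FPKM in WT. Nr1i3 (CAR), a receptor that induces such enzymes, stood at 51.2, 69.9 and 60.7 FPKM in RIPK1_D138N, against 8.65, 12.9 and 7.49 FPKM in WT. Among secreted proteins 36 of 39 tested members rose and 0 fell (median log2 difference 1.78). Serpind1, heparin cofactor II, stood at 153, 198 and 169.8 FPKM in RIPK1_D138N, against 20.5, 21.5 and 16.2 FPKM in WT (log2 difference 3.10 with SE 0.18, adjusted p = 3.01e-07), and Ttpa, which carries vitamin E, stood at 146, 124 and 129 FPKM in RIPK1_D138N, against 26.5, 23.2 and 24.9 FPKM in WT. Both zones of the liver lobule took part, as 18 of 22 tested members rose and 3 fell (median log2 difference 2.32) in the periportal list and 22 of 27 tested members rose and 1 fell (median log2 difference 1.95) in the pericentral list. Oat, a pericentral enzyme, stood at 451, 246 and 293 FPKM in RIPK1_D138N, against 24, 47 and 22.9 FPKM in WT. The periportal falls were Sox9, a factor of bile duct cells, at 4.29, 1.25 and 2.17 FPKM in RIPK1_D138N, against 28.9, 15.9 and 27.2 FPKM in WT, Apoa4, an apolipoprotein, at 101, 72.2 and 70.1 FPKM in RIPK1_D138N, against 333, 394 and 442 FPKM in WT, and Cdh1, E-cadherin (log2 difference -0.68). The Cdh1 call was lost without 1 of the WT libraries. Among hepatocyte transcription factors 13 of 30 tested members rose and 3 fell (median log2 difference 0.54), and Hnf4a, a leading regulator of the cell type, did not pass the test, at 37.3, 63.6 and 51.1 FPKM in RIPK1_D138N, against 52.2, 30.7 and 57.4 FPKM in WT.

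**Figure D3:**
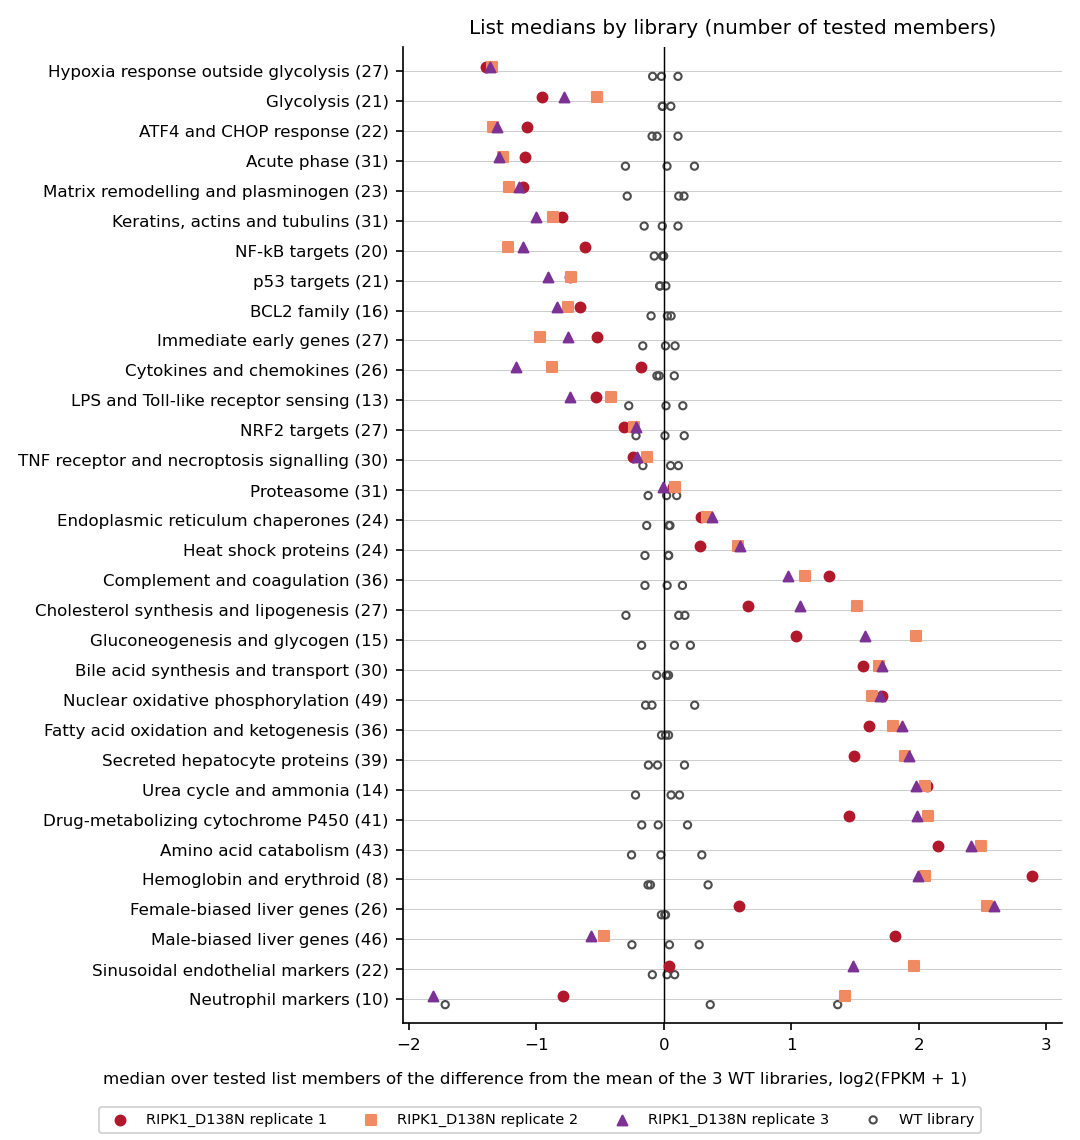
Each row is a gene list and each mark a library. The x axis gives the median over tested members of the difference from the mean of the 3 WT libraries on the log2(FPKM + 1) scale. Filled marks are RIPK1_D138N replicates 1 to 3, drawn above the open marks of the single WT libraries, which show the spread of WT. The mutant marks lie together for most lists and apart for the female-biased and male-biased genes, the sinusoidal endothelial markers and the neutrophil markers. They also spread for the cytokine, gluconeogenesis, cholesterol and erythroid lists.

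Hormone and clock genes split within their lists. In the growth hormone and SOCS list 6 of 22 tested members rose and 8 fell (median log2 difference -0.24), and the falls were 3 from replicate 1 alone and 5 with no filter on low values or without replicate 3 or either of 2 WT libraries. Ghr, the growth hormone receptor, stood at 136, 149 and 141 FPKM in RIPK1_D138N, against 35.8, 49.5 and 26.7 FPKM in WT, and its target Igf1 stood at 277, 385 and 364 FPKM in RIPK1_D138N, against 96, 83.7 and 83.7 FPKM in WT (log2 difference 1.94 with SE 0.18, adjusted p = 3.32e-06). Jak2, Stat5a and Cish of the same list fell instead, and they were added after their direction was seen. Ligands of the EGF receptor fell, Btc at 0.678, 0.145 and 0.227 FPKM in RIPK1_D138N, against 11.6, 8.38 and 11.4 FPKM in WT and Ereg at 0.536, 0.168 and 0.193 FPKM in RIPK1_D138N, against 8.89, 2.63 and 6.77 FPKM in WT, and so did Egfr, at 47.1, 21.4 and 16.7 FPKM in RIPK1_D138N, against 93.2, 90.1 and 80.5 FPKM in WT, with replicate 1 the highest mutant library. Egfr also stands on the list of male-biased genes, which split between replicate 1 and the other mutant libraries. In the clock list 8 of 23 tested members rose and 8 fell (median log2 difference 0.00), with 5 falls without replicate 3, from replicate 1 alone or after removal of the length trend. The repressors Nr1d1, Per1 and Bhlhe41 fell, with log2 differences of -1.66, -1.15 and -2.04. The output genes Usp2 and Noct rose, Usp2 at 21.3, 19.6 and 19.4 FPKM in RIPK1_D138N, against 1.28, 1.83 and 0.853 FPKM in WT and Noct at 21.8, 25.9 and 29.7 FPKM in RIPK1_D138N, against 6.8, 4.39 and 6.42 FPKM in WT. The hour of collection is unknown. Among glucocorticoid-induced genes 6 of 20 tested members rose and 5 fell (median log2 difference -0.01). Tat stood at 548, 1255 and 1046 FPKM in RIPK1_D138N, against 128, 157 and 78.5 FPKM in WT, and Sult1e1, an estrogen sulfotransferase, stood at 1.48, 0.151 and 0.446 FPKM in RIPK1_D138N, against 24, 11.7 and 21.6 FPKM in WT (log2 difference -3.59 with SE 0.38, adjusted p = 9.20e-06). Among iron genes 7 of 19 tested members rose and 6 fell (median log2 difference 0.45), or 4 rises and 4 falls from replicate 1 alone. Slc39a14, an iron and zinc importer, stood at 25.9, 21.3 and 18.8 FPKM in RIPK1_D138N, against 89.6, 61.2 and 92.8 FPKM in WT, and Fth1, the ferritin heavy chain, stood at 1929, 1654 and 1745 FPKM in RIPK1_D138N, against 2828, 3350 and 3064 FPKM in WT and was not called from replicate 1 alone. Tmprss6, which restrains hepcidin, rose by 1.11.

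Replicate 1 differed from the other mutant libraries in part of the genes. Pearson correlations of log2(FPKM + 1) across the tested genes were 0.946 between replicates 1 and 2, 0.957 between replicates 1 and 3 and 0.983 between replicates 2 and 3. At least 1 log2 unit separated 900, 703 and 198 genes in the same pairs, against 96 to 486 genes in pairs of WT libraries. Replicate 1 lay at least 1 log2 unit from both other mutant libraries, on the same side of them, in 502 genes (4.28% of those tested). Genes known to be higher in the liver of one sex made up 49 of the 502, out of 72 such genes tested. Among the female-biased genes 18 of 26 tested members rose and 2 fell (median log2 difference 2.16), but 7 rose from replicate 1 alone, and 33 rose with no filter on low values. Acot3, a thioesterase, stood at 3.11, 47 and 55.8 FPKM in RIPK1_D138N, against 0.539, 0.544 and 0.859 FPKM in WT. Cyp17a1, of steroid synthesis, stood at 3.98, 69.7 and 54.2 FPKM in RIPK1_D138N, against 0.495, 0.86 and 0.626 FPKM in WT. Abcd2, a peroxisomal transporter, stood at 0.465, 9.62 and 9.85 FPKM in RIPK1_D138N, against 0.092, 0.0288 and 0.0741 FPKM in WT. In each, replicate 1 lay above WT and far below replicates 2 and 3, and Acot3 and Abcd2 were not called from replicate 1 alone. Cyp3a16 did not split in this way, at 10.4, 14.7 and 10.2 FPKM in RIPK1_D138N, against 1.86, 2.09 and 1.68 FPKM in WT.

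Male-biased genes showed the reverse split, which the group means hide. The test called 9 rises and 4 falls among 46 members, with a median of -0.12. Replicate 1 lay above every WT library in 42 of them, while replicates 2 and 3 lay below every WT library in 25 and 24. From replicate 1 alone 33 rose and 1 fell, and without replicate 1 10 rose and 23 fell. Without replicate 2 the rises were 14. The falls were 2 with no filter on low values, in a fit of the 6 libraries only or without replicate 2, replicate 3 or either of 2 WT libraries, and 7 after removal of the length trend. Cyp4a12a, a fatty acid hydroxylase, stood at 160.2, 0.158 and 0.64 FPKM in RIPK1_D138N, against 18.8, 26 and 18.1 FPKM in WT. Hsd3b5, a steroid dehydrogenase, stood at 74.9, 0.96 and 0.57 FPKM in RIPK1_D138N, against 23, 33.4 and 15.1 FPKM in WT. C6, a complement component, stood at 71.7, 1.48 and 1.28 FPKM in RIPK1_D138N, against 21.9, 25.3 and 14.6 FPKM in WT. Their log2 differences did not pass the test. Nudt7, of peroxisomes, was above WT in all 3 mutant libraries, at 743, 196 and 211 FPKM in RIPK1_D138N, against 91.6, 111 and 64.8 FPKM in WT. Members of the Mup and Cyp2c families can share fragments between near-identical copies.

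**Figure D4:**
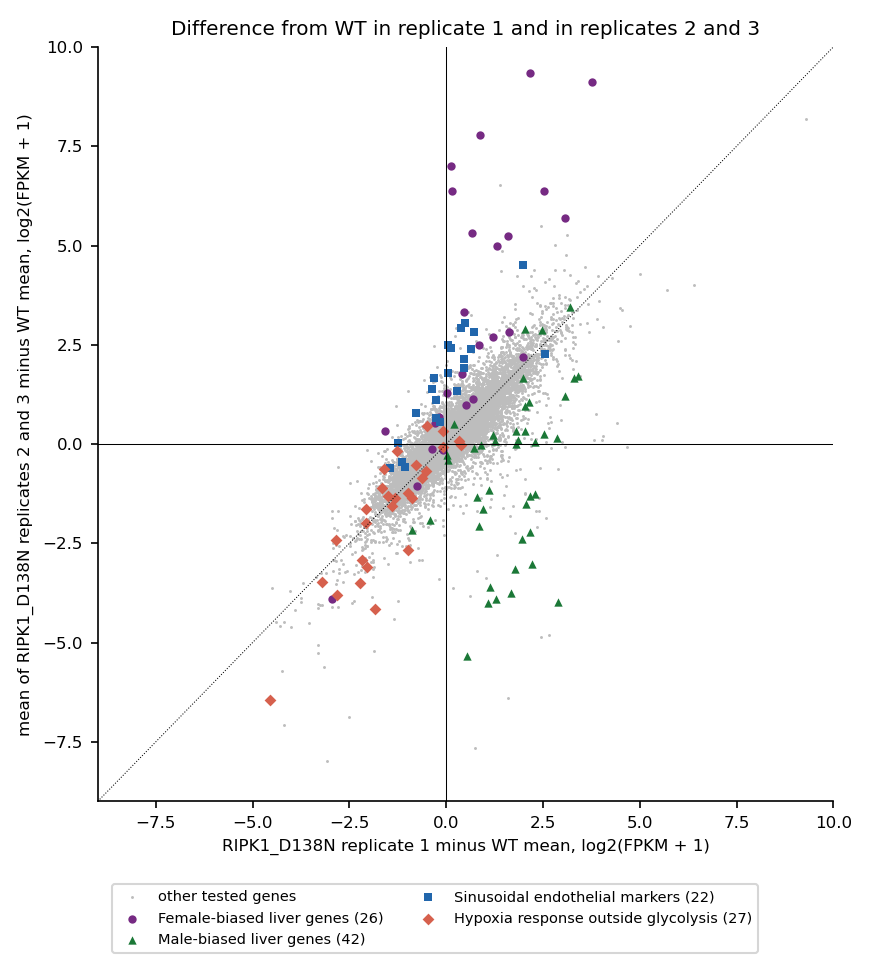
Each point is a tested gene. The x axis is the difference of RIPK1_D138N replicate 1 from the WT mean and the y axis that of the mean of replicates 2 and 3, both on the log2(FPKM + 1) scale, and both share the WT libraries. The dotted line marks equal differences. Hypoxia genes lie near the line, female-biased genes and many endothelial markers above it, and male-biased genes below it, loci listed at 0 in a group left out.

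Sinusoidal endothelial markers split along the same libraries. Overall 11 of 22 tested members rose and 2 fell (median log2 difference 1.10), but 2 rose and 2 fell from replicate 1 alone, 16 rose without replicate 1 and 7 without replicate 2. Their sum was 51.4, 251.6 and 177.2 FPKM in RIPK1_D138N, against 59.1, 62.6 and 52.1 FPKM in WT. Clec4g, a lectin of these cells, stood at 6.73, 55.4 and 34.4 FPKM in RIPK1_D138N, against 1.36, 1.02 and 0.546 FPKM in WT, and Ehd3, of vesicle traffic, stood at 3.07, 18.7 and 14.5 FPKM in RIPK1_D138N, against 1.94, 1.32 and 1.24 FPKM in WT and was not called from replicate 1 alone. Vwf, von Willebrand factor, rose in all 3 libraries, at 7.24, 5.75 and 5.73 FPKM in RIPK1_D138N, against 0.245, 0.739 and 0.294 FPKM in WT. The general endothelial genes Pecam1 and Cdh5 fell, with log2 differences of -0.68 and -0.88, and neither call held with a pseudocount of 0.1, with no filter on low values, after removal of the length trend or without replicate 1, replicate 3 or any single WT library.

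No single direction held across the other marker lists: most tested erythroid and T and NK cell genes rose, while the remaining cell type lists moved both ways or held few called genes. Among stellate cell and fibroblast markers 7 of 17 tested members rose and 5 fell (median log2 difference 0.48), with 4 rises from replicate 1 alone and 3 falls without 1 of the WT libraries. Among monocyte markers 1 of 5 tested members rose and 1 fell (median log2 difference 0.21), and among cholangiocyte markers 2 of 8 tested members rose and 1 fell (median log2 difference 0.07). Kupffer cell and macrophage markers summed to 106.6 to 113.2 FPKM in RIPK1_D138N, against 129.7 to 144.7 FPKM in WT, and 2 of 17 tested members rose and 4 fell (median log2 difference -0.08). The fall of Cd68 was not shared by Clec4f, a Kupffer cell lectin, at 2.85, 5.54 and 4.29 FPKM in RIPK1_D138N, against 4.44, 4.94 and 3.9 FPKM in WT. C1qa, of complement, fell by 0.66 on the log2 scale and was not called from replicate 1 alone, while Fcna, a ficolin, stood at 18.1, 15 and 22.8 FPKM in RIPK1_D138N, against 8.52, 6.37 and 7.62 FPKM in WT. Neutrophil markers varied from library to library in both groups. Of 10 tested members only Lcn2, which hepatocytes also make, was called, and it fell. S100a9 stood at 93.7, 104 and 2.61 FPKM in RIPK1_D138N, against 62.2, 3.19 and 159 FPKM in WT and Ngp, a granule protein, at 0.545, 28.9 and 0.101 FPKM in RIPK1_D138N, against 11, 0 and 21.1 FPKM in WT. For S100a9 the low libraries were replicate 3 in RIPK1_D138N and 1 of the WT libraries. Ly6g was under the expression limit. T and NK cell markers were low, summing to 12.9 to 20.1 FPKM in RIPK1_D138N, against 2.35 to 4.14 FPKM in WT. Of 18 listed members 5 were tested and 4 rose, or 2 after removal of the length trend. The median log2 difference was 0.98, or 0.49 from replicate 1 alone. The expression limit could be passed through the mutant libraries alone, so the share risen is no result about the list. Ccl5, a chemokine of these cells, stood at 5.82, 4.28 and 6.66 FPKM in RIPK1_D138N, against 1.11, 2.51 and 0.581 FPKM in WT. Among B and plasma cell markers Igkc, an antibody light chain, stood at 35.6, 50.4 and 56.9 FPKM in RIPK1_D138N, against 11.6, 10.5 and 14 FPKM in WT. Among hemoglobin and erythroid genes 7 of 8 tested members rose and 0 fell (median log2 difference 2.10), and their sum was 1779, 898.5 and 1027 FPKM in RIPK1_D138N, against 83.8, 91.8 and 156.1 FPKM in WT. Hbb-bs, adult beta globin, stood at 1239, 492 and 605 FPKM in RIPK1_D138N, against 38, 48 and 76.7 FPKM in WT (log2 difference 3.76 with SE 0.47, adjusted p = 2.96e-05), and Hba-a1 rose by 3.29. Ccnd1, cyclin D1, led 4 rises among 9 cell cycle genes, at 4.07, 16.2 and 13.2 FPKM in RIPK1_D138N, against 0.637, 1.43 and 0.633 FPKM in WT.

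The mutant was also set against TNFR12_KO livers directly, a comparison that shares no WT library. Only 41 of 11728 genes were higher (0.35%) and 68 lower (0.58%) in RIPK1_D138N. Single libraries set these counts: they were 273 and 315 without RIPK1_D138N replicate 1, 17 and 13 without replicate 2, and 16 and 11 without replicate 3. They were 19 and 29 without TNFR12_KO replicate 2, 15 and 16 without TNFR12_KO replicate 3, and 31 and 8 from RIPK1_D138N replicate 1 alone. Nnmt stood at 289, 171 and 179.7 FPKM in RIPK1_D138N, against 45.2, 59 and 27.8 FPKM in TNFR12_KO (log2 difference 2.27 with SE 0.29, adjusted p = 0.0019). Ecm1, an extracellular matrix protein of stellate cells, stood at 151, 163 and 234 FPKM in RIPK1_D138N, against 77.1, 34.9 and 51.6 FPKM in TNFR12_KO. Of the 17 tested stellate and fibroblast markers 4 were higher than in TNFR12_KO, namely Lrat, Dcn, Ecm1 and Rgs5. Rsad2 stood at 4.02, 1.73 and 1.61 FPKM in RIPK1_D138N, against 11.7, 13.4 and 15.6 FPKM in TNFR12_KO (log2 difference -2.14 with SE 0.25, adjusted p = 0.000846). Egfr, a member of the male-biased list, stood at 47.1, 21.4 and 16.7 FPKM in RIPK1_D138N, against 74.2, 58 and 79.8 FPKM in TNFR12_KO, and Dbp, a clock output gene, at 46.2, 41.9 and 52.7 FPKM in RIPK1_D138N, against 119, 106 and 104 FPKM in TNFR12_KO. Medians of the log2 difference from TNFR12_KO were -0.10 for the hypoxia list, -0.33 for NF-kB targets, 0.12 for oxidative phosphorylation and 0.15 for amino acid catabolism, against -0.05 over all tested genes. A p that misses the threshold does not show that the levels were equal.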

How the data were processed

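The authors deposited 1 table of FPKM values for 53796 genes in 12 libraries of liver RNA. Per the labels' protocols, total RNA was extracted with Trizol and libraries were made with an NEB kit. Per the submitters' processing notes the tools were STAR 2.5.4a, Cufflinks 2.2.1 and Cuffdiff, with build mm10. Whether strand was used in counting is not stated, so overlapping antisense genes cannot be told apart. Replicate numbers could be assigned to the RIPK1_D138N and TNFR12_KO columns, while WT and Sham columns could be placed in a group without a number. GENCODE M21 gave positions (GRCm38), transcript lengths and identifiers for 53702 genes (99.8%). Rows that repeat a symbol (131) were tested on their own, and values are given for the row with the highest mean.

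From these values log2(FPKM + 1) was computed, and every gene reaching 1 FPKM in 3 or more libraries was tested with limma 3.58.1 in R 4.3.3 (4 group means over 12 libraries, mean-variance trend, Benjamini-Hochberg). On simulated data with the observed spread of each gene, the procedure recovered nearly all changes of 2 log2 units, but the share of false calls lay above the 0.05 aimed at, so calls near the threshold are less firm than their adjusted p. Named genes followed a rule: the 15 rises and 15 falls with the widest gap, up to 4 called genes per list and direction, all tested members of the TNF and sex-biased lists, and 10 genes in each direction in which replicate 1 differed most, with a mean of at least 5 FPKM. A few genes named by this rule are not reported here. Alb, Xist, Atf3, Atf4, Clec4f, Egln3, Hk2, Hnf4a, Ldha, Ldhb, Ly6g, Ngp, Pfkm, S100a9, Tnf, Vegfa, Dcn, Lrat and Rgs5, and the genes under the other observations, lie outside it and were chosen after their values were seen. A further 27 genes of loci listed at 0 in a whole group while at 100 FPKM or more elsewhere were tested but not named by it. The members and all 52 lists were chosen with earlier results of these data known, so their counts are descriptions. FPKM keeps no read depth, and no interval for counting error is given. Promoter windows come from RefSeq. Alternatives covered the pseudocount, the filter, the scaling, transcript length, the libraries fitted and single libraries left out.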

Additional observations from a re-analysis of the deposited data

How the results depend on the processing

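Risen and fallen genes against WT numbered 2941 to 3565 and 2400 to 3572 over the pseudocount, the filter, the scaling, the length trend, the model and the loci listed at 0, and 2991 to 3359 and 2001 to 2784 with any single library of the 2 groups left out. Against TNFR12_KO the counts moved more: 27 higher and 33 lower without a filter on low values, 8 lower from RIPK1_D138N replicate 1 alone, and 15 to 273 higher and 11 to 315 lower with 1 library left out (an alternative added after seeing the data). The fit with replicate 1 as the lone mutant library assumes that it varies like the other groups, and it turned the direction of the male-biased Cyp4a12a (2.89), C6 (1.78) and Hsd3b5 (1.68) and of Ddx3y (0.62) and Pf4 (2.40), because it drops the 2 libraries that were low. Of the genes named in the text and followed through these fits, the scaling ended 5 calls, the filter 11 and the length trend 9, all with the same direction. No paired analysis was possible because the WT columns carry no replicate number. Depth is unknown, so the precision of genes under a few FPKM cannot be stated.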

Other observations

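Genes known from platelets were high in RIPK1_D138N replicate 1 alone, and they were picked after their values were seen. Pf4, platelet factor 4, stood at 32.1, 1.7 and 1.17 FPKM in RIPK1_D138N, against 5.66, 4.77 and 5.34 FPKM in WT. Ppbp, another platelet chemokine, stood at 21.7, 0.225 and 1 FPKM in RIPK1_D138N, against 0.222, 0.358 and 0.513 FPKM in WT. Nrgn, a calmodulin binder also found in platelets, stood at 24.2, 0.251 and 1.35 FPKM in RIPK1_D138N, against 0.31, 0.187 and 0.0897 FPKM in WT. None of these 3 genes passed the test against WT, and replicates 2 and 3 lay at or below a few FPKM. Tff3, a trefoil peptide, stood at 23.3, 0.864 and 0.382 FPKM in RIPK1_D138N, against 0.205, 1.22 and 0.259 FPKM in WT, and in Sham livers at 28.6 ± 8.38 FPKM (mean ± SD, n = 3). Its value in replicate 1 was within the range of the Sham libraries.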
